A study of Mus musculus with 8 samples.

Results

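The genes described here are the 8 named genes of the mouse MHC class II presentation pathway: H2-Aa, H2-Ab1, H2-Eb1, H2-DMa, H2-DMb1, H2-DMb2, Cd74 and Ciita. They were chosen by name, all 8 are among the 11756 gene symbols of the deposited table, and all 8 passed the filter on low values that left 10091 genes for testing. Their values come from 8 libraries of CD11c positive cells isolated by flow cytometry from the bone marrow of C57BL/6 mice. In 4 libraries the cells had been loaded on culture day 6 for 24 h with acLDL, an acetylated low density lipoprotein known as a ligand of scavenger receptors. The other 4 libraries are controls without it. The series' design text gives acLDL as a stand-in for an atherosclerotic environment. No label ties a library to a separate animal or culture, so a p-value here speaks only of variation among the 8 libraries, and that variation may be technical.

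MHC class II molecules are heterodimers of an alpha and a beta chain that show peptides from endosomes to CD4+ T cells, and dendritic cells are their main carriers for priming naive T cells. In the endoplasmic reticulum the dimers bind the invariant chain, encoded by Cd74, which fills the groove and directs them to endosomes. Proteases such as cathepsin S trim it to a short peptide, and H2-DM exchanges that peptide for antigen. Ciita encodes the coactivator that switches on the whole gene set. C57BL/6 mice express the I-A molecule (H2-Aa with H2-Ab1) but no complete I-E molecule, since their E alpha gene is silent, so the H2-Eb1 chain lacks its usual partner in these cells.

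The class II genes of the major histocompatibility complex are grouped on chromosome 17 (GRCm38). There, H2-DMa spans 34119541 to 34139101, H2-DMb2 34143307 to 34151555, H2-DMb1 34153072 to 34160230, H2-Ab1 34257689 to 34269419 and H2-Eb1 34305867 to 34316674, all on the plus strand. H2-Aa spans 34282744 to 34287823 on the minus strand. Promoters of this family carry an X box, bound by the RFX complex and by CREB-type factors, followed by a Y box, bound by NF-Y, and Ciita docks on the factors bound there. To show what members with opposite values share upstream, the stretch from base -140 to base -31 before the RefSeq start (GRCm38.p6) is given for the members H2-Aa, H2-Eb1, H2-DMb1 and H2-DMb2 and for the related class II genes H2-Eb2 and H2-Ob. RefSeq promoters were matched for 5 of the 8 members, and H2-Ab1, Cd74 and Ciita are named only. For some genes the RefSeq start differs from that of the span above. The stretch of H2-DMb2 lies inside its span, and that of H2-DMb1 partly inside. Capitals mark the Y box core CCAAT or its reverse complement ATTGG, the X box pattern (G, any base, AAC, any 2 bases, ATG), and the cyclic AMP response element TGACGTCA.
H2-Aa: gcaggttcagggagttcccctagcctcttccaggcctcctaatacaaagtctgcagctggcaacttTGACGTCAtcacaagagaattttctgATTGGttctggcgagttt
H2-Eb1: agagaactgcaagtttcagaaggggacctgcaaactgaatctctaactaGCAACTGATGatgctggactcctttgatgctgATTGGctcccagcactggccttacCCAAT
H2-Eb2: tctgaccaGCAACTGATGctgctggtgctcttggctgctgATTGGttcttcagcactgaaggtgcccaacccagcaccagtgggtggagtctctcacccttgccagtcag
H2-Ob: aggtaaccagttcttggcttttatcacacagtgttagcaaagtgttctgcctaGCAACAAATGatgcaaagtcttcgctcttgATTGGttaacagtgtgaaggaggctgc
H2-DMb1: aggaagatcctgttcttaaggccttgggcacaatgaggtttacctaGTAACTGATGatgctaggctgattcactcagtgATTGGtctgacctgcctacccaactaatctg
H2-DMb2: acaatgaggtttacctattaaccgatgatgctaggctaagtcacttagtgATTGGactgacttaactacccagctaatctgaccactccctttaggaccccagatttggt

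These stretches lie at chr17:34287854-34287963 (minus strand) for H2-Aa, chr17:34305727-34305836 for H2-Eb1, chr17:34325535-34325644 for H2-Eb2, chr17:34238765-34238874 for H2-Ob, chr17:34153051-34153160 for H2-DMb1 and chr17:34145109-34145218 for H2-DMb2 (all plus strand). These 6 hold ATTGG. The related gene H2-Oa also holds ATTGG between bases -140 and -31, but not the X pattern or TGACGTCA, and its stretch is not printed. The fifth matched member, H2-DMa, has 2 RefSeq entries, and neither holds any of the 3 motifs between bases -140 and -31, so its stretches are not printed. On either strand, the Y core was found in 37.4% of the 32851 RefSeq promoters, each 250 bases before to 50 bases after the start, the X pattern in 2.51% and TGACGTCA in 1.79%. The X pattern lay 22 bases before ATTGG in H2-Eb1 and H2-Eb2, 23 in H2-DMb1 and 20 in H2-Ob. An X pattern 15 to 30 bases before the Y core was found in 10 of the 32851 promoters (0.0304%), and these 4 genes are among them; this spacing was chosen after the sequences had been seen. The neighbours H2-DMb1 and H2-DMb2 also align at 95.4% identity over 848 nt of their longest coding transcripts, so reads from them may have been shared between the pair and the level of each is uncertain. Matches of letters are a description and do not show that a factor is bound.

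Values are the authors' normalized signal, with library totals from 3917426 to 4385051. Some libraries went against their labels. By Spearman correlation over all tested genes, acLDL library 1 lay closest to control library 3 (0.948) and control library 1 closest to acLDL library 4 (0.888). Genes listed at 0 made up 6.98%, 18.5%, 21.9% and 11.1% of acLDL libraries 1 to 4, against 11.96%, 11.4%, 5.63% and 9.06% of control libraries 1 to 4.

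The I-A chains and the invariant chain gene were low in acLDL libraries 2 and 3. The normalized signal of H2-Aa, the I-A alpha chain gene, was 6232, 49.5, 29.4 and 1683 in acLDL libraries 1 to 4, against 1610.4, 6119, 6463 and 4429.9 in control libraries 1 to 4. The acLDL values spanned 212-fold and the control values 4.01-fold. Library 1 of the acLDL group lay between controls 2 and 3, libraries 2 and 3 lay below every control, and library 4 lay just above control 1. H2-Aa averaged 1998.5 ± 2927 with acLDL and 4656 ± 2216 in controls (SD, n = 4 each), and its log2 fold change on the scale log2(value + 5), as acLDL minus control, was -3.45 (SE 1.57, limma's adjusted p = 0.298).

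H2-Ab1, the I-A beta chain gene, had 4080.1, 479, 41.3 and 1046 in the acLDL libraries, against 1931, 3733, 3320.2 and 3487 in the controls. Here 3 acLDL libraries lay below every control and acLDL library 1 above all of them. The mean was 1412 ± 1826 with acLDL and 3118 ± 809 in controls (SD, n = 4 each), with a log2 fold change of -2.44 (SE 1.14, limma's adjusted p = 0.299). Cd74, the invariant chain gene on chromosome 18 (60803848 to 60812652, plus strand, GRCm38), had 3596, 109.7, 240.5 and 793 in the acLDL libraries, against 830.2, 2463, 2831 and 2425 in the controls. As for H2-Ab1, acLDL library 1 was the highest of all 8 libraries and the other 3 acLDL libraries were the lowest. Cd74 averaged 1185 ± 1634 with acLDL and 2137 ± 890.4 in controls (SD, n = 4 each), a log2 fold change of -1.86 (SE 0.96, limma's adjusted p = 0.306).

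H2-Eb1, the E beta chain gene, had a higher mean with acLDL. Its signal was 23144, 39629, 44279 and 31147 in the acLDL libraries, against 26611, 21913, 18386 and 21618 in the controls. Its 3 highest acLDL libraries lay above every control, and acLDL library 1 lay within the control range. The mean was 34549.8 ± 9348 with acLDL and 22132 ± 3387 in controls (SD, n = 4 each), with a log2 fold change of 0.61 (SE 0.23, limma's adjusted p = 0.298). H2-Eb1 made up 0.560%, 0.936%, 1.01% and 0.795% of the total signal of acLDL libraries 1 to 4, against 0.641%, 0.516%, 0.440% and 0.543% in controls 1 to 4. The sum of H2-Aa, H2-Ab1 and Cd74 made up 0.336%, 0.0151%, 0.00710% and 0.0899% of these acLDL totals, against 0.105%, 0.290%, 0.302% and 0.260% of the control totals. Because H2-Eb1 carried most of the signal of the 8 members in every library, the members together took 0.906% to 1.04% of the total with acLDL and 0.773% to 0.842% in controls. Before division by the totals, their sums overlapped, at 35477 to 45443 with acLDL and 32256 to 35770 in controls. These shares are of the authors' normalized signal, and how it relates to transcript numbers is not known here, so they do not rank the genes.

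**Figure D1:**
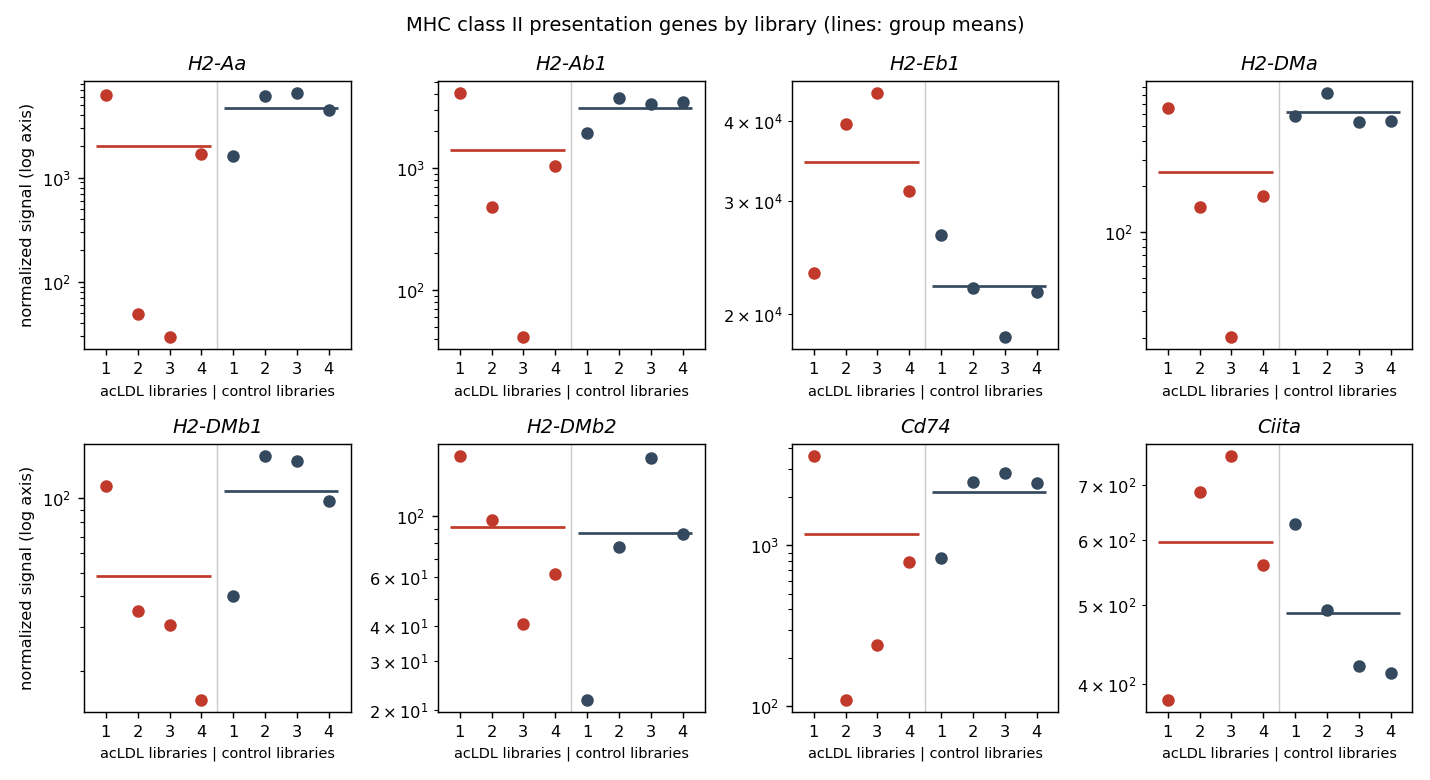
Normalized signal (vertical log axes) of the 8 members in acLDL libraries 1 to 4 (red, left) and control libraries 1 to 4 (dark, right), with a line at each group mean. H2-Aa reaches 29.4 in acLDL library 3 and 6232 in acLDL library 1, while H2-Eb1 is highest, at 44279, in acLDL library 3.

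The genes of the peptide exchanger H2-DM differed in their values. H2-DMa, its alpha chain gene, had 662, 146, 20.3 and 173 in the acLDL libraries, against 584, 822, 533 and 536 in the controls. As with H2-Ab1, acLDL libraries 2, 3 and 4 lay below every control. H2-DMa averaged 250.3 ± 282 with acLDL and 619 ± 138 in controls (SD, n = 4 each), and its log2 fold change was -2.07 (SE 0.82, limma's adjusted p = 0.298). H2-DMb1, a beta chain gene, had 112, 34.9, 30.7 and 15.2 in the acLDL libraries, against 40.0, 149, 142 and 97.7 in the controls. Its means were 48.2 ± 43.4 with acLDL and 107 ± 50.1 in controls (SD, n = 4 each), a log2 fold change of -1.24 (SE 0.59, limma's adjusted p = 0.300). It was lowest in acLDL library 4 rather than in library 3. H2-DMb2, the neighbouring beta chain gene, had 165, 96.8, 40.8 and 61.7 with acLDL, against 21.7, 77.5, 161 and 86.1 in controls. Its lowest value was in control library 1, its means of 91.0 ± 54.3 and 86.7 ± 57.4 (SD, n = 4 each) differed by less than the spread, and the log2 fold change was 0.17 (SE 0.60, limma's adjusted p = 0.881).

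Ciita, the gene of the class II coactivator, lies on chromosome 16 (10480059 to 10528418, plus strand, GRCm38) and varied less than 2-fold within each group. It had 383, 688, 760.4 and 559 in the acLDL libraries, against 627, 493, 421 and 413 in the controls. The acLDL group held both the lowest and the 2 highest libraries. Its mean was 598 ± 166 with acLDL and 488 ± 99.2 in controls (SD, n = 4 each), a log2 fold change of 0.26 (SE 0.26, limma's adjusted p = 0.540). Reads of the opposite-strand genes Dexi, which overlaps Ciita, and Brd2, which overlaps H2-DMa, and of Gm20513, an antisense gene that overlaps H2-Eb1, cannot be told apart from those of the members where the counting did not use strand, and whether it did is not given in the sources used here. Gm20513 was listed at 12.1, 19.8, 23.4 and 17.95 in the acLDL libraries, against 0, 0, 7.51 and 10.9 in the controls. Every acLDL library lay above every control for it, as for 3.44% of tested genes. Log2 fold changes were 1.45 (SE 0.53) for Gm20513, -1.59 (SE 0.89) for Dexi and 0.50 (SE 0.34) for Brd2.

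With all 8 libraries, no member passed limma's threshold of an adjusted p of 0.05, nor did any of the 10091 tested genes (0%). At an unadjusted p under 0.05 by limma stood 2 members, H2-Eb1 on the higher and H2-DMa on the lower side, as did 16.4% of all tested genes (7.42% higher and 8.93% lower with acLDL). After quantile normalization those unadjusted calls were 1025 higher and 594 lower, against 749 higher and 901 lower as deposited, and the median log2 fold change of all genes was 0.12 against -0.13. The acLDL and control values overlapped for all 8 members, while they did not overlap for 5.64% of tested genes (3.44% higher and 2.2% lower with acLDL). At least 3 acLDL libraries lay below every control for 4 members, H2-Ab1, H2-DMa, H2-DMb1 and Cd74, as they did for 20.9% of tested genes, and at least 2 did for 5 members and 35.3% of tested genes. For H2-Eb1, and for 16.3% of tested genes, at least 3 acLDL libraries lay above every control. The median log2 fold change of the 8 members was -1.55, with 3 higher and 5 lower, and 55.7% of all tested genes were lower.

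Within a library, the ratio of 2 members does not depend on how that library was scaled. The log2 ratio of H2-Eb1 over H2-Aa was 1.89, 9.51, 10.33 and 4.21 in the acLDL libraries, against 4.04, 1.84, 1.51 and 2.29 in the controls. It lay above every control in 3 acLDL libraries, with acLDL library 1 among the controls. The mean difference was 4.06, where the exact permutation test (two-sided, 70 assignments, smallest possible p 0.029) gave p = 0.114, and 0.40 after Benjamini-Hochberg adjustment over the 4 ratios tested. H2-Eb1 over Cd74 gave a mean difference of 2.48 (exact permutation p = 0.20, adjusted 0.40). For the I-A partners, H2-Aa over H2-Ab1, the log2 ratio was 0.61, -3.15, -0.43 and 0.68 with acLDL, against -0.26, 0.71, 0.96 and 0.35 in controls. The difference of -1.01 (exact permutation p = 0.343, adjusted 0.457) came mainly from acLDL library 2, where H2-Aa was listed at 49.5 and H2-Ab1 at 479. H2-DMa over H2-DMb1 differed by -0.83 (exact permutation p = 0.514).

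Beyond this pathway, the libraries also differed in the signal of short transcripts. A short-transcript index, taken as the mean log2 deviation over tested genes with coding transcripts below 1000 nt, was 1.11, -1.36, -2.25 and -0.30 in acLDL libraries 1 to 4, against 0.06, 0.94, 1.08 and 0.72 in control libraries 1 to 4. H2-Ab1 and H2-Aa were lowest where the index was lowest, H2-Eb1 was highest there, and acLDL library 4 and control library 1 were in between for all 3 genes. Their longest coding transcripts measure 1128 nt for H2-Aa, 1212 nt for H2-Ab1, 1404 nt for H2-DMb1, 1410 nt for Cd74, 1483 nt for H2-DMb2, 1669 nt for H2-Eb1, 2005 nt for H2-DMa and 6007 nt for Ciita in GENCODE. Of all tested genes of 1000 to 2100 nt, a band that holds 7 members, 67.3% had a negative log2 fold change, with a median of -0.61 and middle 50% from -1.44 to 0.21. H2-Eb1 lay above the upper quartile of that band, and H2-Aa, H2-Ab1, Cd74 and H2-DMa lay below its lower quartile.

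**Figure D2:**
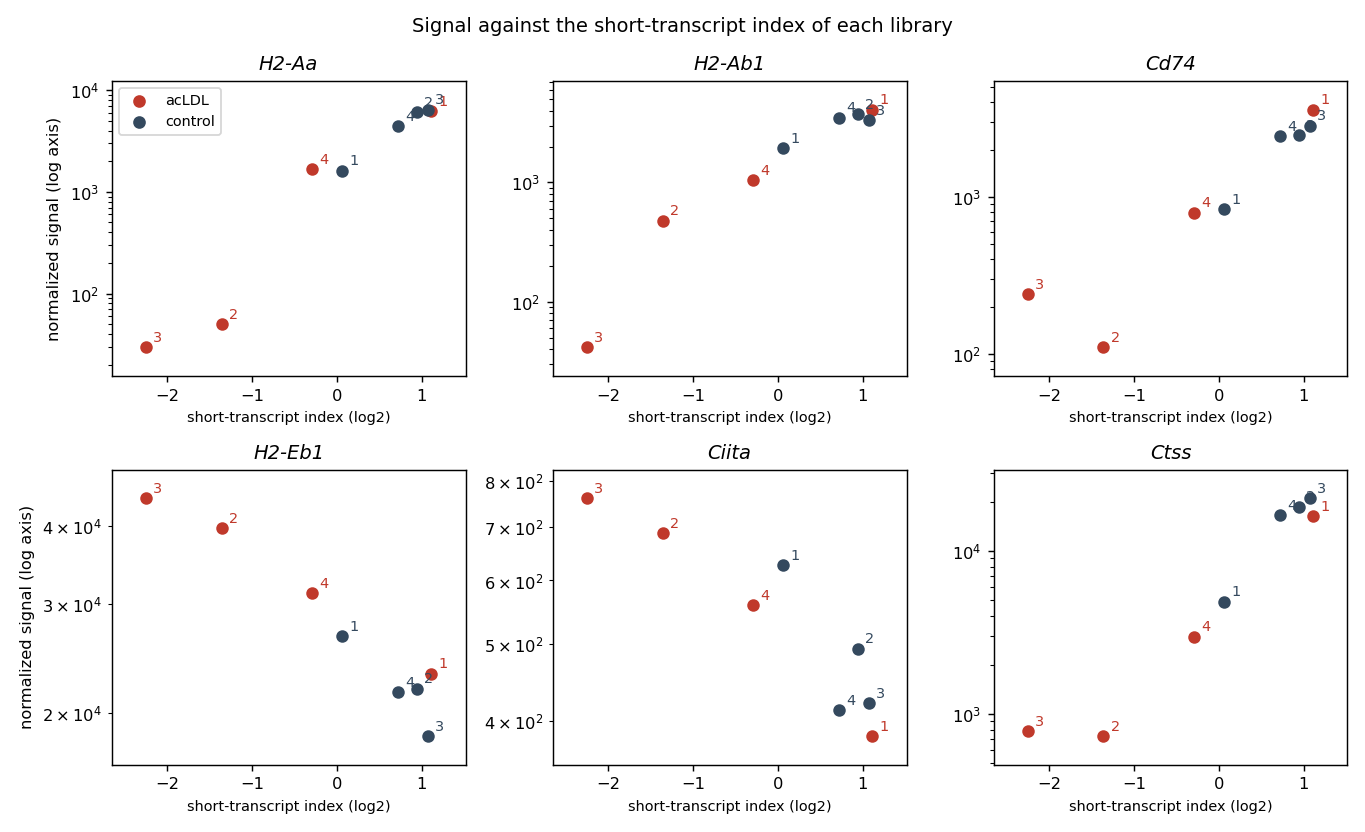
Normalized signal (vertical log axes) of 5 members and of Ctss against the short-transcript index of each library (horizontal axes, log2), with acLDL libraries in red, controls dark and library numbers beside the points. H2-Eb1 and Ciita are highest at the low end of the index, where H2-Aa, H2-Ab1, Cd74 and Ctss are lowest; acLDL library 1, with an index of 1.11, lies at the opposite end.

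**Figure D3:**
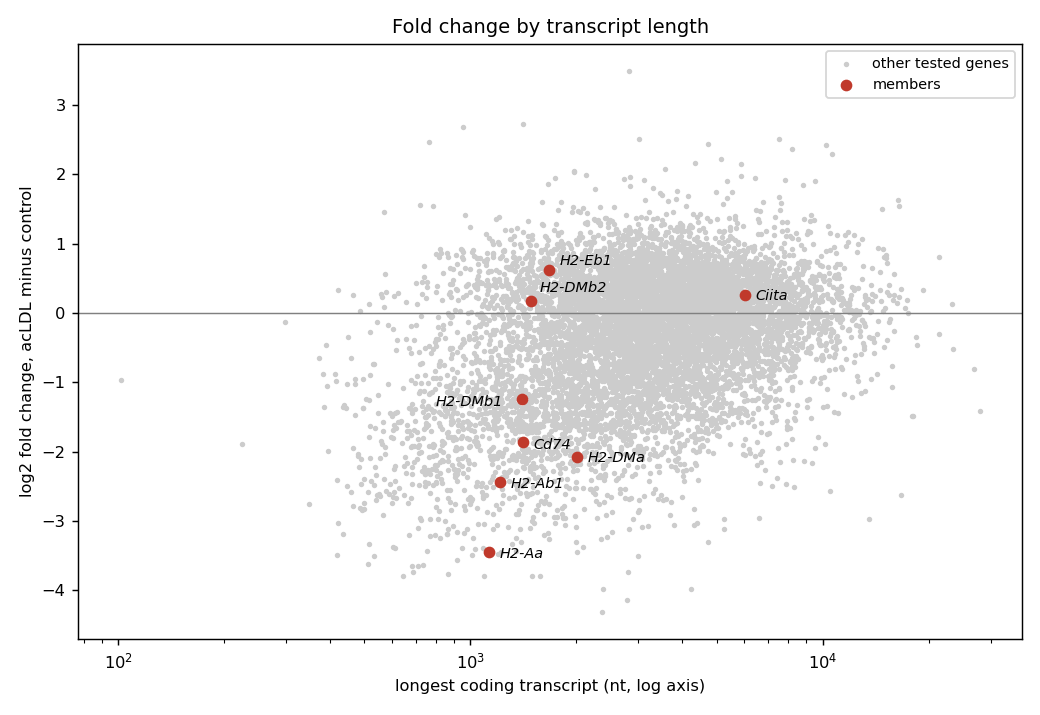
Log2 fold change (acLDL minus control, vertical axis) against the longest coding transcript (horizontal log axis) for tested genes with a known length (grey) and the 8 members (red). H2-Aa (-3.45) and H2-Eb1 (0.61) stand apart although their transcripts measure 1128 and 1669 nt.

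With the index as a covariate, the log2 fold changes came to -0.08 (SE 0.55) for H2-Aa, -0.05 (SE 0.48) for H2-Ab1, 0.06 (SE 0.54) for Cd74 and 0.19 (SE 0.11) for H2-Eb1. They were -0.44 (SE 0.47) for H2-DMa, -0.48 (SE 0.61) for H2-DMb1, -0.18 (SE 0.18) for Ciita and 1.04 (SE 0.57) for H2-DMb2, which lay farther from 0 than without the covariate. None of the 8 passed the threshold. Since 3 of the 4 acLDL libraries had a lower index than every control, the covariate and the treatment cannot be fully told apart. Without acLDL libraries 2 and 3, the values were -0.34 (SE 0.69) for H2-Aa, -0.55 (SE 0.54) for H2-Ab1, -0.20 (SE 0.70) for Cd74 and 0.29 (SE 0.22) for H2-Eb1. H2-DMb1 stayed near its value from all libraries, at -1.05 (SE 0.79), and H2-DMa was at -0.83 (SE 0.51), H2-DMb2 at 0.49 (SE 0.74) and Ciita at -0.06 (SE 0.28), none past the threshold. No member passed when a single library other than acLDL library 1 was left out. Without acLDL library 1, which lay closest to control library 3 over all tested genes, 6 members passed limma's threshold. H2-Eb1 was higher, with a log2 fold change of 0.79 (adjusted p = 0.027). H2-DMa (-2.80, adjusted p = 0.027), Cd74 (-2.78, adjusted p = 0.030), H2-Aa (-4.80, adjusted p = 0.034), H2-Ab1 (-3.40, adjusted p = 0.037) and H2-DMb1 (-1.72, adjusted p = 0.042) were lower. In that fit 2190 of all tested genes passed (21.7%), 7.28% higher and 14.4% lower. With array weights, which give each library its own precision, H2-Eb1 was higher and H2-DMa, H2-DMb1 and Cd74 were lower past the threshold, among 19.4% of all tested genes (6.49% higher and 12.9% lower).

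**Figure D4:**
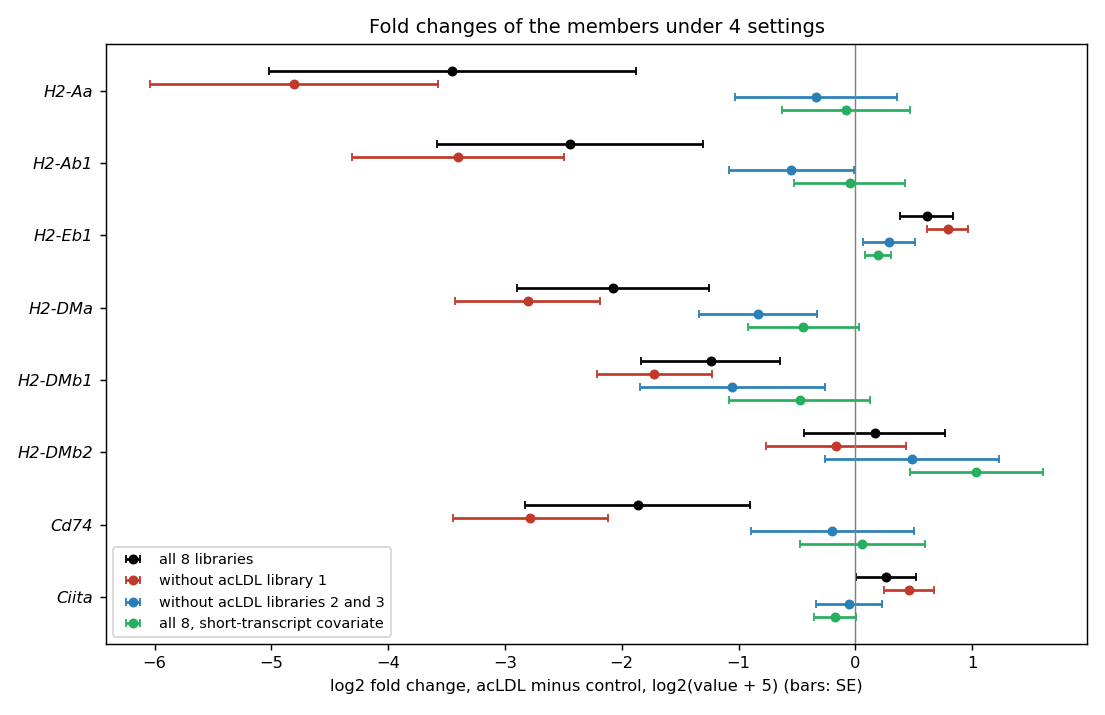
Log2 fold change (acLDL minus control, horizontal axis) of each member with its standard error (bars), with all 8 libraries, without acLDL library 1, without acLDL libraries 2 and 3, and with the short-transcript index as a covariate. H2-Aa ranges from -4.80 to -0.08 over these fits and H2-Eb1 from 0.19 to 0.79.

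Of the other class II genes of the complex, H2-Eb2, a second E beta chain gene, separated the groups. It had 155, 149, 168 and 156 in the acLDL libraries, against 94.9, 77.1, 93.8 and 80.5 in the controls. Every acLDL library, library 1 included, lay above every control, as for 3.44% of tested genes. H2-Eb2 averaged 157 ± 7.93 with acLDL and 86.6 ± 9.10 in controls (SD, n = 4 each), a log2 fold change of 0.83 (SE 0.20, limma's adjusted p = 0.298). It was 0.78 (SE 0.23) with the index as a covariate, 0.83 without acLDL library 1 (adjusted p = 0.036) and 0.81 without acLDL libraries 2 and 3. H2-Oa and H2-Ob encode H2-DO, which restrains H2-DM. H2-Ob had a log2 fold change of 0.96 (SE 0.41) and H2-Oa of -1.13 (SE 0.68), both at limma's adjusted p above 0.05 (0.298 and 0.344). H2-Oa was listed at 47.6, 7.66, 0 and 6.72 with acLDL, against 21.7, 34.0, 25.6 and 23.3 in controls. Without acLDL library 1 it was lower past the threshold (-1.77, limma's adjusted p = 0.040), and with the index as a covariate its value was 0.07 (SE 0.50).

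The list of antigen processing and class II turnover genes had 10 of 12 tested genes lower and 2 higher (median log2 fold change -1.43), and none passed limma's threshold. Without acLDL library 1, 7 of the 12 passed, in a fit where 21.7% of all tested genes did (7.28% higher and 14.4% lower). Marchf1 was higher and Cst3, Ctsd, Ctss, Ctsz, Ifi30 and Lgmn were lower (limma's adjusted p 0.024 for Ctss to 0.045 for Lgmn). With the index as a covariate none passed, and the values were -0.50 (SE 0.38) for Ctss, 0.37 (SE 0.32) for Cst3 and -0.08 (SE 0.59) for Ifi30. Ctss, which encodes the cathepsin S that makes the last cuts in the invariant chain, had 16338, 729.5, 784 and 2978 in the acLDL libraries, against 4869.6, 18666, 21035 and 16588 in the controls. Here acLDL library 1 lay within the control range, the other 3 acLDL libraries lay below every control, and the fold change on the log2 scale was -2.53 (SE 0.96, limma's adjusted p = 0.298). Cst3, encoding the cathepsin inhibitor cystatin C, had a lowest value of 24.5 and a highest of 9293 among acLDL libraries, against 1277 and 7235 among controls (-3.19, SE 1.61). Ifi30, encoding a thiol reductase of endosomes, had a lowest listed value of 0 and a highest of 592 among acLDL libraries, against 61.9 and 603 among controls (-3.33, SE 1.53). Lgmn, the asparagine endopeptidase gene, had a value of -2.44, Cd63 of -2.51, Ctsz of -1.62 and Ctsd of -1.24. The cathepsin genes Ctsb (-0.15, SE 0.13) and Ctsl (-0.23, SE 0.23), and Sppl2a, whose intramembrane protease clears the last invariant chain fragment (-0.23, SE 0.16), lay closer to 0. Marchf1, the ubiquitin ligase that removes class II from the surface, had 775, 1149, 1509 and 1065 with acLDL, against 910.0, 801, 743 and 611 in controls (0.53, SE 0.24, limma's adjusted p = 0.298). Like H2-Eb1 it was highest in acLDL library 3 and lowest, within the acLDL group, in library 1. Marchf8 had 0.05 (SE 0.35).

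The factors that switch on class II genes had fold changes nearer to 0, though several had low values, where the added 5 makes fold changes too small. Nfya was at most 26.8 in any library, Rfxap at most 32.7 and Nfyc at most 38.0. Of 11 tested genes, 4 were higher and 7 lower, with a median log2 fold change of -0.30, and none passed limma's threshold. The listed subunit genes of RFX gave 0.18 (SE 0.32) for Rfxap and -0.92 (SE 1.08) for Rfxank, while Rfx5 was absent. Those of NF-Y gave 0.62 (SE 0.49) for Nfya, -0.31 (SE 0.37) for Nfyb and -0.75 (SE 0.43) for Nfyc, and Creb1 gave 0.08 (SE 0.22). Among factors of myeloid and interferon control, Spi1 (PU.1) had -0.28 (SE 0.31), Irf8 -0.30 (SE 0.26), Irf4 0.45 (SE 0.36) and Irf1 -0.42 (SE 0.92). Their limma adjusted p-values lay between 0.330 for Nfyc and 0.825 for Creb1.

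The genes most like H2-Aa over the 8 libraries were Rpl27, AW112010, S100a10 and S100a11, by the root mean square difference of centred log2 values (0.16 to 0.27). Rpl27 encodes a ribosomal protein, S100a10 and S100a11 small calcium-binding family proteins, and the coding transcripts of these 3 measure 511 to 732 nt. Among the members, H2-Ab1 came nearest to H2-Aa, at 1.25 and rank 283. Nearest to H2-Eb1 were Rac2, a GTPase of blood cells, Ubxn1, Vps52 and Acadsb (0.04 to 0.08), and Ciita followed at 0.20 and rank 323. Coding transcripts measure 3038 nt for Rac2, 1291 nt for Ubxn1, 3383 nt for Vps52 and 6081 nt for Acadsb. Likeness here is a description of 8 libraries.

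Markers of the sorted cells varied with the same libraries. Itgax, the gene of CD11c, had 189, 10.004, 0 and 42.7 in the acLDL libraries, against 81.5, 182, 195 and 172 in the controls. The 12 dendritic cell markers listed summed to 213 to 2319 with acLDL and 632 to 2203 in controls, and the 13 macrophage and monocyte markers to 26323 to 60837 with acLDL and 43011 to 68276 in controls. Of 10 tested dendritic cell markers, 9 were lower and 1, Xcr1, was higher with acLDL (median log2 fold change -1.27). Flt3 and Zbtb46, which define conventional dendritic cells, were at most 24.6 in any library, while Mgl2 and Ccr7 reached 879 and 720 in acLDL library 1. Of the 13 macrophage and monocyte markers, 9 were lower and 4 higher (median -1.20), and Lyz2, at 12898 or more in every library, was the largest term of their sum in each. Csf1r (0.65), Fcgr1 (0.69), Cx3cr1 (0.63) and Mertk (0.45) were on the higher side. Adgre1 and Ly6c2 were listed at 0 in acLDL libraries 2 and 3, and Cd68, C1qa and C1qc at 0 in acLDL library 3. The 6 listed markers of B cells and plasmacytoid dendritic cells, which also carry class II, summed to 155 to 347 with acLDL and 191 to 245 in controls, with Cd79a at most 39.3 and Ms4a1 at most 37.5. Of 8 T and NK cell markers, only Cd8a was listed, and Cd3e, Cd3d, Cd3g, Cd4, Trac, Ncr1 and Nkg7 were absent. Cd8a had 18.3 to 57.1 with acLDL and 0 to 16.8 in controls, without overlap, as for 3.44% of tested genes. The 9 granulocyte markers summed to 8713 to 18279 with acLDL and 11546 to 20433 in controls. Mmp8, with a log2 fold change of 0.15, was the largest term of that sum in each library. Of these 9, 6 were lower and 3 higher (median -1.45), and S100a8 and S100a9 fell to 36.3 and 125 in acLDL library 3. In bulk RNA, fewer cells of a type and less RNA per cell cannot be told apart, and the part of these markers in the class II values was not tested.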

How the data were processed

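Each library has 1 value for each gene symbol in the deposited table, a normalized signal on the authors' own scale. Although the table is named as raw counts, 0.241% of values above 0 are whole (within 0.001), so no count model was used. Library totals of this signal ran from 3917426 to 4385051, 12.1% of values were listed at 0 and none lay between 0 and 5, so a listed 0 may stand for a low estimate; read depth is unknown. Tools named in the submitters' processing notes are kallisto and bcl2fastq 2.20, with the build mm10. Normalization, filters and strand setting: not given in the sources used here. Per the labels' protocols libraries came from a Lexogen QuantSeq 3' kit, while the design text names the 5' end.

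Genes reaching 10 in 4 or more libraries were tested with limma 3.58.1 (R 4.3.3; trend and robust options) on log2(value + 5), with the group as the only term and Benjamini-Hochberg adjustment; the pseudocount makes fold changes of low genes too small. Ratios were tested by exact permutation (scipy 1.17.1). Transcript lengths and coordinates are from GENCODE M21 (GRCm38), which matched 96.6% of symbols and gave a coding length for 86.2%; promoters are from RefSeq (GRCm38.p6). The fit was tested on simulated data. Members and gene lists were chosen with earlier results of these data known. Named genes are the members, the genes of the pathway lists (1 gene of the transcription list is not reported here), leading and near-absent markers, and the 4 genes nearest to H2-Aa and to H2-Eb1. Alternatives were other scalings, filters and pseudocounts, a replicate block, left-out libraries, the short-transcript covariate and array weights.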

Additional observations from a re-analysis of the deposited data

Results flagged for a closer look

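In 76 groups of 4 values (34 genes and 4 ratios, in each condition), 7 held a library whose gap to the nearest other was a larger part of the group's range than Dixon's critical value; chance alone flags about 1 group in 20. No member was among them. Library 1 of the acLDL group stood above the other acLDL libraries for Ctss (16338), Cd63 (1082), Ifi30 (592) and H2-Oa (47.6). Ctsb in acLDL library 3, at 12796, stood above the other acLDL libraries, over a range of 1.08-fold. Control library 1 stood below the other controls for Ifi30 (61.9) and above them for Nfya (20.1).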

How the results depend on the processing

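No gene passed the threshold in 15 of 18 alternatives, while 1 passed after quantile normalization, 1957 with array weights (19.4% of those tested) and 0 to 2190 with single libraries left out, that is 2190 without acLDL library 1 and 0 without any other. Leaving out each library gave log2 fold changes from -4.80 to -2.30 for H2-Aa, -3.40 to -1.25 for H2-Ab1, 0.48 to 0.79 for H2-Eb1, -2.80 to -1.23 for H2-DMa, -1.72 to -0.88 for H2-DMb1, -0.34 to 0.54 for H2-DMb2, -2.78 to -1.12 for Cd74 and 0.13 to 0.46 for Ciita. Calls appeared only without acLDL library 1 and with array weights, where H2-Eb1 (0.72), H2-DMa (-1.99), H2-DMb1 (-2.02) and Cd74 (-2.25) passed. The sign turned for H2-DMb2 without acLDL library 1 (-0.17), without control library 1 (-0.34) and with array weights (-0.48), for Cd74 (0.061) and Ciita (-0.18) with the short-transcript covariate, and for Ciita (-0.057) without acLDL libraries 2 and 3. That omission also turned the differences in log2 ratio of H2-Aa over H2-Ab1 (0.21) and of H2-DMa over H2-DMb1 (0.22). Left-out libraries moved the ratios from -1.43 to -0.15 for H2-Aa over H2-Ab1, -1.29 to -0.08 for H2-DMa over H2-DMb1, 1.66 to 3.57 for H2-Eb1 over Cd74 and 2.78 to 5.59 for H2-Eb1 over H2-Aa. The median of the antigen processing list was -0.022 with the covariate and -2.07 to -0.74 with left-out libraries; that of the transcription list ran from -0.44 to -0.09 and that of the other class II genes from 0.67 to 0.87 with left-out libraries, and with the covariate they were 0.0066 (against -0.30 without it) and 0.61. The causes were not tested. With the replicate block no gene passed, as without it, and 730 rather than 1650 genes had an unadjusted p under 0.05; same-numbered libraries correlated at -0.55, -0.21, -0.28 and 0.03 in their deviations from the group means, so the numbers were not taken as pairs. Median log2 fold changes of all genes were -0.16 under size factors and 0.12 after quantile normalization.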
